A study of Mus musculus with 8 samples.

Results

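Foxa2, the forkhead transcription factor gene whose protein marks the glands of the mouse uterus, is described here together with 5 other genes of gland identity and gland output. They are its paralogue Foxa1, the SRY-box transcription factor gene Sox17, the cytokine gene Lif, and Prss28 and Prss29, which encode the serine proteinases that glands secrete around implantation. All rows of the deposited tables with 1 of these 6 gene symbols were taken and summed per gene, which gave 6 genes of 24346 symbols. The 6 were picked with their values in both groups already known, so every difference of theirs below is a description with no test. Tests are given only for family and pathway genes outside the 6.

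RNA from uterine epithelium was sequenced as 5 libraries from Smad2/3 cKO mice and 3 libraries from control mice. The cKO mice were homozygous for floxed Smad2 (exons 9 and 10) and floxed Smad3 (exons 2 and 3) and carried a Cre knock-in at the progesterone receptor locus (Pgr-cre). SMAD2 and SMAD3 carry TGF-beta and activin signals into the nucleus. Pgr-cre acts in epithelium and also in stroma, muscle, ovary and pituitary, so the deletion is not limited to the cells that were sequenced. All mice, controls included, had a mixed C57BL/6/129S6/SvEv background. The alleles of the control mice, age, stage of the cycle, the way the epithelium was isolated and any hormone treatment are not stated in the sources used. Nothing in the labels says that each library is a separate animal, so the p-values below speak for the spread among 8 libraries, part of which may be technical.

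Uterine glands form after birth as buds of the luminal epithelium, and in the mouse FOXA2 is needed for their formation and is confined to gland cells of the uterus. Glands of the receptive uterus secrete LIF, which acts on the luminal epithelium through the LIF receptor, the shared subunit gp130 and the transcription factor STAT3, and without which embryos do not implant. SOX17 is made by both gland and luminal cells and is also needed for receptivity and implantation.

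The levels are scaled FPKM, fragments corrected for transcript length and library depth, put on 1 scale across libraries. Estimated depth was 43.1 to 53.9 M mapped fragments in cKO and 51.3 to 54.3 M in control. The tissue label was checked against 8 epithelial markers (Epcam, Cdh1, Krt7, Krt8, Krt18, Krt19, Cldn3 and Cldn4), whose summed level was 3225 to 5811 in cKO and 4287 to 4665 in control, and none of which was called. Markers of other cells moved between libraries. The sum of 8 stromal markers was 52.7 to 248 in cKO and 108 to 249 in control, and that of 7 smooth muscle markers 15.2 to 104 in cKO and 55.9 to 325 in control, with control 1 the highest. The sum of 6 neutrophil markers was 309 to 1987 in cKO and 213 to 413 in control, with only cKO 4 inside the control range. Of these, Il1r2 was called higher, as was Retnlg, which was below 1 in control 1 and control 2. The sum of 6 proliferation markers was 6.31 to 180 in cKO and 5.91 to 9.27 in control, with only cKO 2 inside the control range. The sum of 8 leukocyte markers was 73.8 to 143 in cKO and 114 to 151 in control. Laptm5 of that list was called lower. Ptprc, also of that list, was 3.03 to 10.2 in cKO and 1.55 to 2.83 in control, with no overlap, and was not called. The sum of 10 endothelial markers overlapped between the groups and reached at most 7.90 in cKO and 8.90 in control. Smad2 was called lower, at 3.58 ± 0.378 in cKO and 6.07 ± 0.342 in control (SD, n = 5 and 3), and Smad3 was not, at 30.7 ± 8.97 and 28.2 ± 3.07. Gene-level FPKM also counts exons outside the floxed segments. By their titles cKO 1 and cKO 2 come from a separate run of numbers. The remaining 6 libraries are called the main title series, and values within them stand beside the pooled ones.

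Foxa2 had the largest log2 difference of the 6 genes. Its level in cKO 1 to 5 was 6.26, 4.71, 5.95, 4.59 and 4.78 scaled FPKM, and in control 1 to 3 it was 0.960, 0.966 and 0.442. Every cKO library lay far above every control, the lowest cKO value being 4.75 times the highest control value. The mean was 5.26 ± 0.785 in cKO and 0.790 ± 0.301 in control (SD, n = 5 and 3), a ratio of 6.66. The log2 difference, cKO minus control on the log2(scaled FPKM + 1) scale, which understates the difference of low genes, was 1.81 with a standard error of 0.168, and 1.78 within the main title series. With the stromal and muscle marker level of each library in the model it was 1.96. An estimated 457 to 661 fragments per library stood behind Foxa2 in cKO and 51.4 to 112 in control. No control library reached 1 scaled FPKM and all 5 cKO libraries did, so Foxa2 met the filter for testing (1 scaled FPKM or more in 3 or more libraries) only through cKO. Within cKO its coefficient of variation was 14.9%. In bulk libraries such as these, more gland cells and more Foxa2 RNA per cell cannot be told apart.

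**Figure D1:**
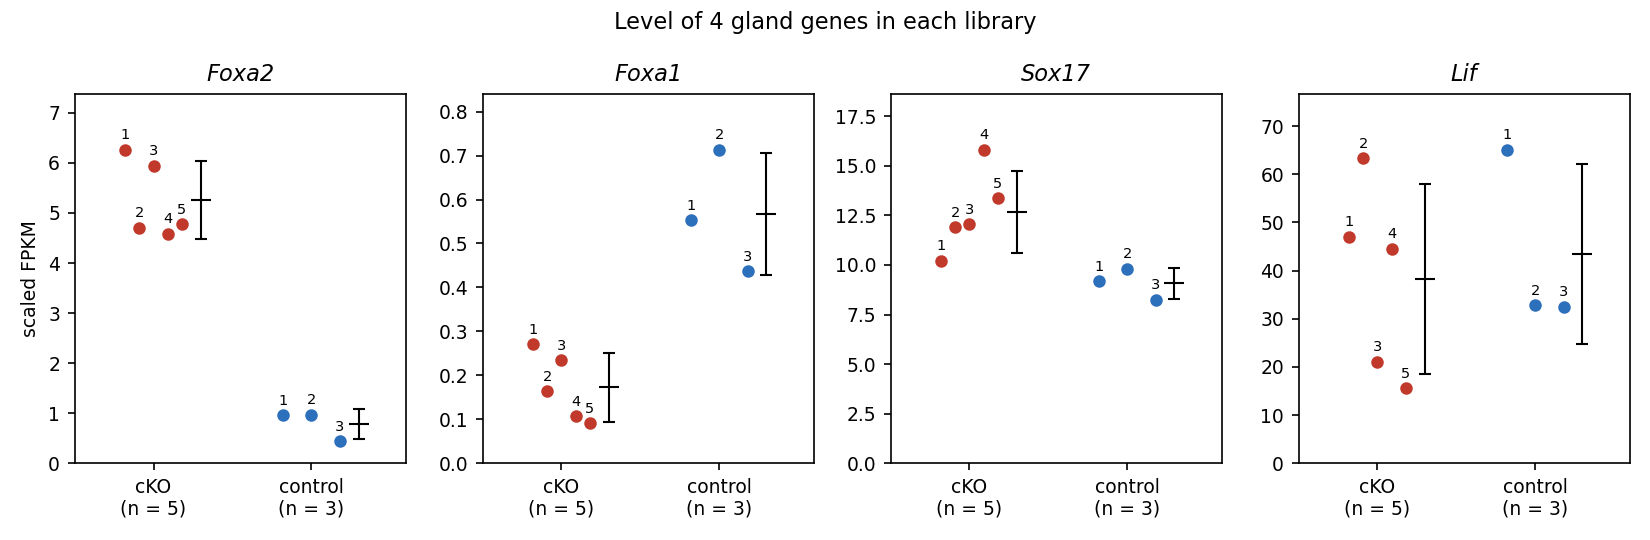
Scaled FPKM of Foxa2, Foxa1, Sox17 and Lif in each library, with cKO in red on the left and control in blue on the right; numbers name the libraries, and the bars give mean ± SD (n = 5 and 3). No cKO value of Foxa2 or Sox17 was as low, and none of Foxa1 as high, as any control value, while the Lif values of the groups overlapped.

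The tables hold 3 Foxa2 transcripts (chromosome 2, 148042877 to 148046969, minus strand, mm10), each with its own start. NM_001291065, which starts inside the gene, carried 100% of Foxa2 FPKM in all 5 cKO libraries and in control 2 and control 3. In control 1 it carried 87.7%, and NM_001291067 carried the other 12.3%, an estimated 12.8 fragments. NM_010446, the transcript with the outermost start, was listed at 0 in all 8 libraries. The 3 transcripts share exons, and the division of FPKM among them is Cufflinks' estimate. The 250 bases before each start are printed 5′ to 3′ on the gene's strand (RefSeq, GRCm38.p6), the start that carried the FPKM first, with each CpG dinucleotide in capitals because the windows differ in their number.
Foxa2 NM_001291065, chr2:148045949-148046198: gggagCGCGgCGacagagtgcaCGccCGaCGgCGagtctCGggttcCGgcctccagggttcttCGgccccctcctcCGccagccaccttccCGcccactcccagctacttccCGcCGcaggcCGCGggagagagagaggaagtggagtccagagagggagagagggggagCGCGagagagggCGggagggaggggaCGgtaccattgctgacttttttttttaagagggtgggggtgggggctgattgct
Foxa2 NM_001291067, chr2:148045465-148045714: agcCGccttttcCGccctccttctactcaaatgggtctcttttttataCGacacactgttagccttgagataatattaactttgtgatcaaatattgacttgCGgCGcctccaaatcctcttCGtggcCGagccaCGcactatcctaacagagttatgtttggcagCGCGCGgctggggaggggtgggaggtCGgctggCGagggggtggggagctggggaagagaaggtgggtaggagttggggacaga
Foxa2 NM_010446, chr2:148046970-148047219: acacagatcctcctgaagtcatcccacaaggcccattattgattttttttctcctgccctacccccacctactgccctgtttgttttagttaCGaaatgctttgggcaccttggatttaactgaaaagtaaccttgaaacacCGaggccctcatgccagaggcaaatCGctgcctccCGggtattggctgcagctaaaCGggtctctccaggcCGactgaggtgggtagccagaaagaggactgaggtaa
The window of NM_001291065 has 20 CpG and 67.2% G and C, that of NM_001291067 has 13 CpG and 54.4%, and that of NM_010446 has 6 CpG and 50.8%. The medians over 32851 promoter windows of the same length are 6 CpG and 52.4%.

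**Figure D2:**
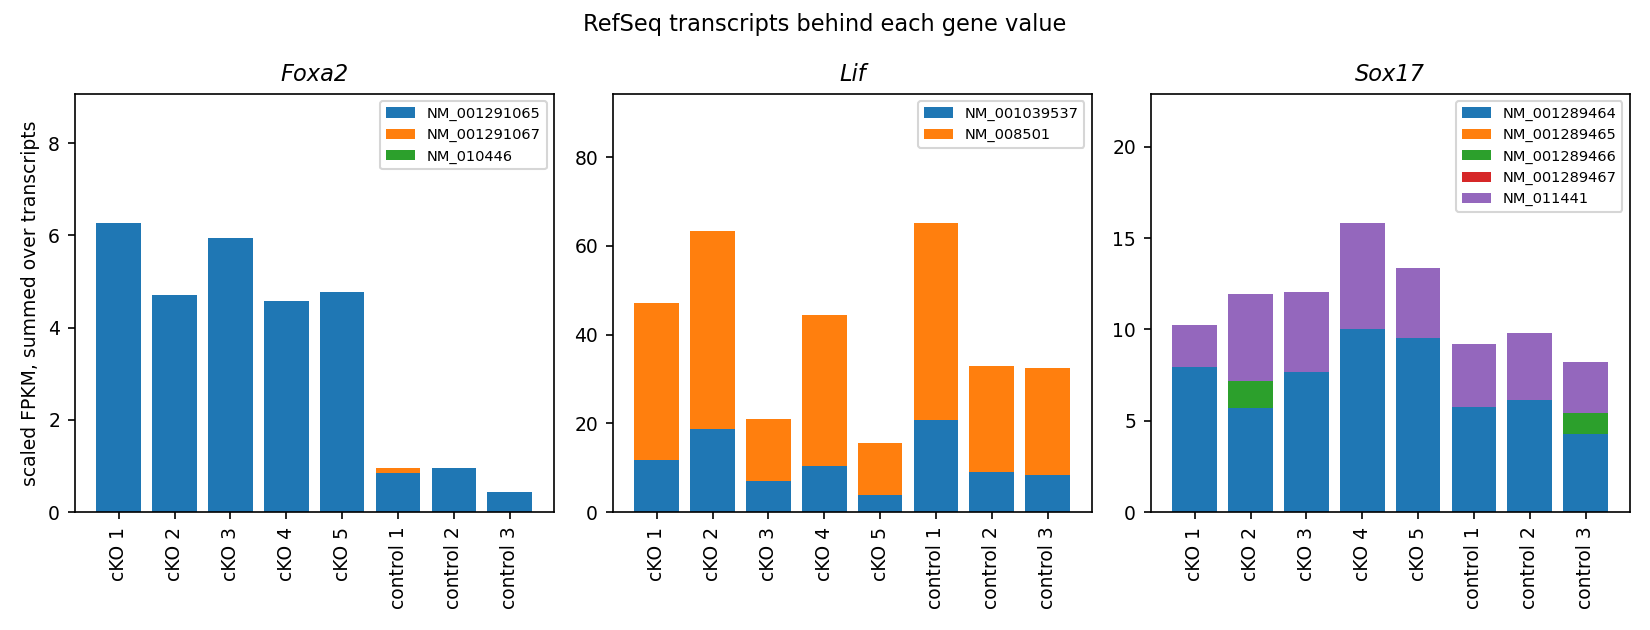
Scaled FPKM of each RefSeq transcript of Foxa2, Lif and Sox17, stacked per library, with cKO 1 to 5 left of control 1 to 3. A single Foxa2 transcript, NM_001291065, fills every bar but that of control 1, and Lif keeps NM_008501 as its larger part in every library.

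Foxa1, which encodes the paralogue of FOXA2 that binds the same DNA motif, was lower in cKO, and below 1 scaled FPKM in every library. It was 0.271, 0.163, 0.234, 0.106 and 0.0905 scaled FPKM in cKO 1 to 5, and 0.553, 0.713 and 0.437 in control 1 to 3. All 5 cKO values lay below all 3 control values, with means of 0.173 ± 0.0784 and 0.568 ± 0.139 (SD, n = 5 and 3). The ratio of the means was 0.305 and the log2 difference -0.42 (standard error 0.0850), -0.45 within the main title series and -0.38 with the stromal and muscle level in the model. These values rest on an estimated 13.7 to 44.0 fragments per library in cKO and 78.3 to 127 in control. Foxa1 was under the filter in every library. The third gene of the family, Foxa3, did not exceed 0.133 in any library.

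The ratio of the 2 genes joins both differences. Foxa2 was 23.1, 28.8, 25.4, 43.1 and 52.8 times Foxa1 in cKO 1 to 5, and 1.74, 1.36 and 1.01 times Foxa1 in control 1 to 3. FPKM is per length, so the levels of the genes can be set side by side: in control libraries Foxa2 was less than 2 times Foxa1, and in control 3 they were almost equal. The sum of Foxa1 and Foxa2 was 4.69 to 6.53 in cKO and 0.879 to 1.68 in control. Foxa1 lies on chromosome 12 (57540632 to 57546121, minus strand). The 7 promoter windows of the members include none for Sox17 and none for the start of the Lif transcript NM_001039537. The Foxa1 window has no RefSeq transcript assigned, and its last bases, from 57546112, lie inside NM_008259, which starts at 57546121. Of the 7 windows only that of Foxa1 held the forkhead core TGTTTAC on either strand. It is shown for that, with the match in capitals as it reads on the gene's strand.
Foxa1, chr12:57546112-57546361: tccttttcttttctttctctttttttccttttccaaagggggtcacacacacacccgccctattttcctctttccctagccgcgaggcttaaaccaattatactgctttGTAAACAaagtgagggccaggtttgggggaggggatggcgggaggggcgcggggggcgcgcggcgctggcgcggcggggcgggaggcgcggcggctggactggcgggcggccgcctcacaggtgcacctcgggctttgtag
The forkhead core occurs in 3.17% of the 32851 windows. The SOX core AACAAT (9.42% of windows) and the SMAD palindrome GTCTAGAC (0.167%) were in none of the 7 windows. The shorter SMAD element CAGAC (42.2%) occurred once each in the Lif and Prss29 windows, and the GC-rich BMP-SMAD element GGCGCC (9.59%) once in the Foxa2 window of NM_001291067. Both strands were searched and no motif contains another. A match is a string of letters and not a shown binding site.

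Sox17 was slightly higher in cKO. Its level was 10.2, 11.9, 12.1, 15.8 and 13.4 scaled FPKM in cKO 1 to 5, and 9.195, 9.80 and 8.24 in control 1 to 3. The groups did not overlap, but only just, the lowest cKO value being 1.04 times the highest control value. The means were 12.7 ± 2.08 in cKO and 9.08 ± 0.786 in control (SD, n = 5 and 3), a ratio of 1.40. The log2 difference was 0.43 (standard error 0.117), and 0.54 within the main title series. With the stromal and muscle level in the model it was 0.40. Of its 5 transcripts (chromosome 1, 4490928 to 4497354), NM_001289464 carried 47.8% to 77.6% in cKO and 51.6% to 62.5% in control, NM_011441 most of the rest, and 2 were listed at 0 throughout. A processed transcript, Gm37587, overlaps the 5′ end of Sox17 on the opposite strand, from 4496551 to 4497354. The use of strand in the authors' counting is not given in the sources used here, so reads within that overlap cannot be told apart. Of the other genes of the same SOX subgroup, Sox7 was tested and not called. It was more abundant than Sox17, at 51.9 ± 9.99 in cKO and 59.5 ± 5.14 in control (SD, n = 5 and 3), with a log2 fold change of -0.21 ± 0.166 and an adjusted p = 0.405 (limma, Benjamini-Hochberg over all tested genes). Sox18, which endothelium also expresses, was under the filter, at or below 0.884.

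Of the 6 members, 3 had groups that did not overlap, Foxa2 and Sox17 higher and Foxa1 lower in cKO. Over all symbols, 19.1% of the 18132 genes above 0 in at least 1 library had groups that did not overlap, 8.75% higher and 10.4% lower in cKO, and since the members were chosen on these values nothing is read from their count. The order of the levels was the same at its top in both groups. By group mean, Lif was the highest, then Sox17, Foxa2 and Foxa1, with Prss29 and Prss28 last. Lif was 1.17 to 5.32 times Sox17 in cKO and 3.35 to 7.07 times in control, so that in cKO 5 the 2 genes stood close together.

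Lif (chromosome 11, 4257568 to 4272514) was the most abundant and the most variable of the expressed members. It was 47.0, 63.4, 21.1, 44.5 and 15.6 scaled FPKM in cKO 1 to 5, and 65.0, 32.8 and 32.5 in control 1 to 3. The groups overlapped through most of their range: control 1 was above all cKO libraries, while cKO 3 and cKO 5 were below all controls. The means were 38.3 ± 19.7 in cKO and 43.5 ± 18.7 in control (SD, n = 5 and 3), with a log2 difference of -0.27 and a standard error of 0.491. Within the main title series the difference was -0.72, and without control 1 it was 0.05. An estimated 2985 to 12018 fragments per library in cKO and 7378 to 13273 in control stood behind it. Its 2 transcripts kept their proportion while the total moved 4.07-fold within cKO. NM_008501 carried 66.4% to 76.6% of Lif in cKO and 68.0% to 74.0% in control.

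Downstream of Lif and around it, 4 of the 16 tested genes of the LIF and related cytokine list rose, and 1 fell, against 7.27% of the 11315 tested genes called higher and 6.98% called lower (14.3% in all). With TPM in place of scaled FPKM 23.5% of all calls were higher, against 51.0%. The list of 18 genes outside the members holds receptors, JAK and STAT transducers, inhibitors and sister cytokines, and Cntfr and Il11 were under the filter. Its median log2 fold change was -0.04, beside -0.0050 over all tested genes. The genes that rose were Socs3, Lifr, Osm and Clcf1. Within the main title series 3 were called higher (Lifr, Osm and Socs3) and 1 lower (Tyk2). Leaving out 1 library gave 1 to 6 higher and 0 to 2 lower, with 2 higher without control 2, 1 without control 3 and 6 without cKO 3. With the stromal and muscle level in the model 2 were called higher (Lifr and Socs3) and 0 lower, with 4 and 2 at an unadjusted p below 0.05.

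Among the receptors, Lifr, which encodes the ligand-binding chain for LIF, rose. It was 17.2, 22.5, 12.1, 25.8 and 16.7 scaled FPKM in cKO 1 to 5, and 8.74, 3.82 and 4.28 in control 1 to 3. Each cKO library was above each control. The log2 fold change was 1.62 ± 0.284 (limma adjusted p = 0.00872), and 1.55 within the main title series (adjusted p = 0.0412). The call was narrowly lost without control 2 (adjusted p = 0.0520) or control 3 (adjusted p = 0.0531), with log2 fold changes of 1.42 and 1.49. Il6st, which encodes the partner chain gp130, was 31.3 ± 9.52 in cKO and 30.9 ± 9.91 in control and was not called. Osmr, which encodes the receptor chain for oncostatin M, was higher in each cKO library than in any control, at 26.0 ± 3.91 and 18.8 ± 2.49 (SD, n = 5 and 3), but missed the threshold (limma adjusted p = 0.0696), which it passed, as Il6 did, when cKO 3 was left out. The transducer genes were not called. Stat3 was 63.0 ± 6.75 in cKO and 66.8 ± 7.82 in control, and Jak1 18.8 ± 1.92 and 20.4 ± 1.08.

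Socs3, which encodes the feedback inhibitor that STAT3 induces, rose in all cKO libraries. It was 47.5, 46.6, 34.7, 28.4 and 39.7 scaled FPKM in cKO 1 to 5, and 14.2, 11.7 and 13.2 in control 1 to 3. The lowest cKO value was 28.4 and the highest control value 14.2, so the groups were far apart. The log2 fold change was 1.50 ± 0.170 (limma adjusted p = 0.00136), 1.32 within the main title series (adjusted p = 0.00684), and the call held in all 17 alternatives, over which the log2 fold change ran between 1.32 and 1.61. In cKO 3 and cKO 5, the cKO libraries with the least Lif, Socs3 was 34.7 and 39.7, and its lowest cKO value was in cKO 4. A relation of Socs3 to Lif was not tested.

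Osm, which encodes the sister cytokine oncostatin M, was 12.3, 21.5, 14.0, 4.60 and 8.55 scaled FPKM in cKO 1 to 5, and 0.960, 2.53 and 1.63 in control 1 to 3. Its values were uneven within cKO, yet each exceeded every control. The log2 fold change was 2.18 ± 0.405 (limma adjusted p = 0.0110) and 1.82 within the main title series (adjusted p = 0.0349). The call was lost without control 3 (adjusted p = 0.0545, log2 fold change 2.18) and with the stromal and muscle level in the model (adjusted p = 0.0589). In cKO 4 Osm was 4.60, the lowest of the cKO libraries and above all controls. The neutrophil marker sum of cKO 4, 309, was inside the control range, as were S100a8, S100a9 and Csf3r. Retnlg, Cxcr2 and Il1r2 in cKO 4 were above all controls. In the other 4 cKO libraries Osm and the neutrophil sum were both higher than in control. Among these 4 the sum did not follow Osm: cKO 2, with the most Osm (21.5), had the lowest sum (1193). S100a8 and S100a9 made up most of the sum, at 287 and 940 of 1270 in cKO 1. The part of neutrophils in the Osm result was not tested.

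Clcf1, which encodes cardiotrophin-like cytokine factor 1, rose as well, at 31.4 ± 10.3 in cKO and 13.8 ± 4.82 in control (SD, n = 5 and 3; log2 fold change 1.12 ± 0.280, limma adjusted p = 0.0317). Ctf1, the cardiotrophin 1 gene, fell, at 2.97 ± 0.427 in cKO and 4.88 ± 0.909 in control (log2 fold change -0.56 ± 0.136, limma adjusted p = 0.0288). Neither call held within the main title series, where the log2 fold changes were 0.81 (adjusted p = 0.0730) for Clcf1 and -0.54 (adjusted p = 0.0780) for Ctf1, nor with the stromal and muscle level in the model (adjusted p = 0.0982 for Clcf1 and 0.0849 for Ctf1). The Clcf1 call was also lost without cKO 1 (adjusted p = 0.0532), cKO 2 (0.0574), control 2 (0.138) or control 3 (0.139), and the Ctf1 call without cKO 1 (0.0558), cKO 5 (0.0534), control 2 (0.146) or control 3 (0.134). Il6 was 5.45 ± 3.95 in cKO and 1.22 ± 0.556 in control and was not called.

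**Figure D3:**
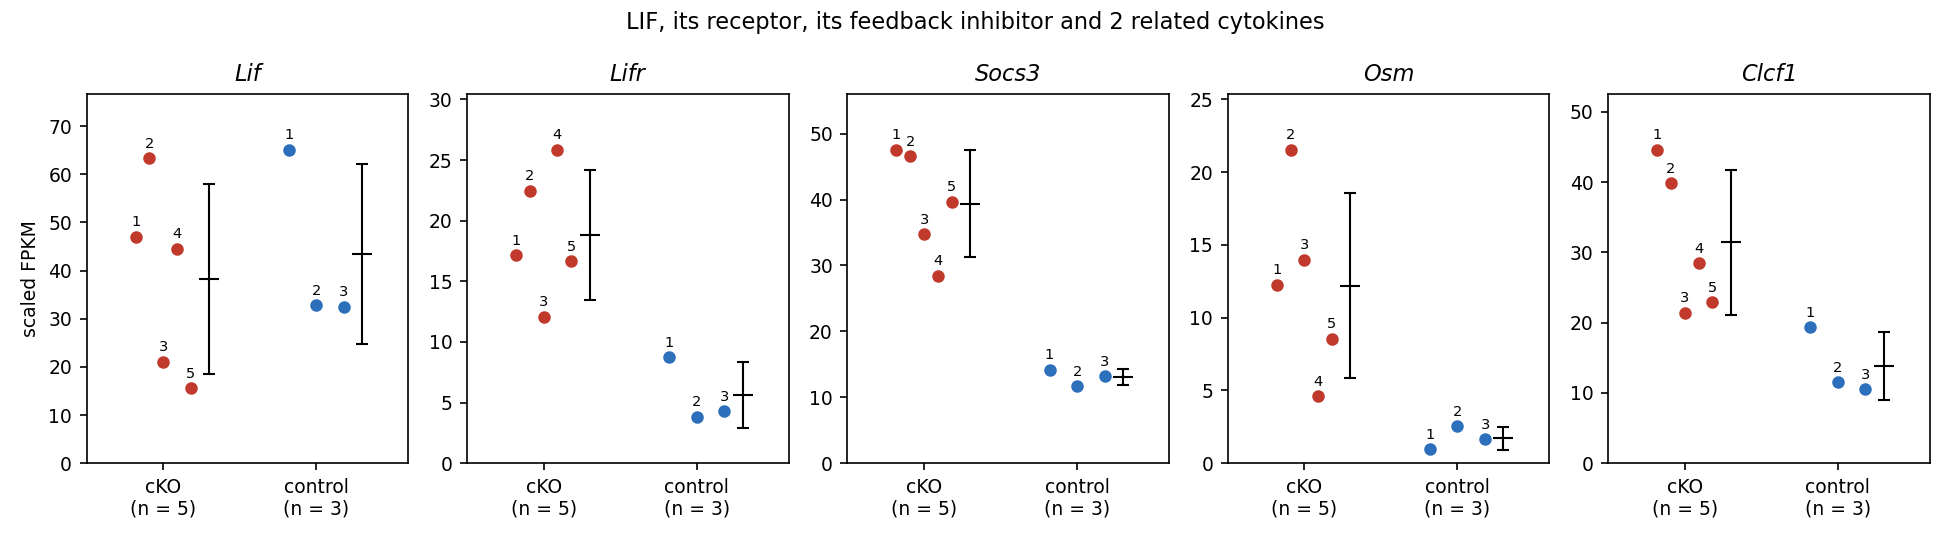
Scaled FPKM of Lif, its receptor gene Lifr, the feedback inhibitor gene Socs3 and the cytokine genes Osm and Clcf1 in each library, with cKO in red on the left and control in blue on the right and bars for mean ± SD (n = 5 and 3). Lif overlaps between the groups, while all cKO values of the other 4 genes lie above the control values.

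Prss28 and Prss29, the gland proteinase genes, were at or near 0 in both groups. Prss28 (chromosome 17, 25308646 to 25311876) was listed at 0 in all 8 libraries. Prss29 (chromosome 17, 25318654 to 25322684) was 0.0356 and 0.0585 scaled FPKM in cKO 1 and cKO 2, an estimated 2.15 and 3.25 fragments, and was listed at 0 in the other 3 cKO libraries and in the 3 control libraries. No fold change can be given for either gene. A 0 from Cufflinks may stand for a failed estimate, but the status of both genes was OK in every library. The genes are neighbours on the plus strand and their transcripts are 60.9% identical, with a longest shared run of 27 bases. Their promoters (RefSeq, GRCm38.p6, 250 bases before each start, plus strand) are printed with runs of at least 8 identical aligned bases in capitals, to show what a pair of genes with the same lack of signal has in common.
Prss28, chr17:25308396-25308645: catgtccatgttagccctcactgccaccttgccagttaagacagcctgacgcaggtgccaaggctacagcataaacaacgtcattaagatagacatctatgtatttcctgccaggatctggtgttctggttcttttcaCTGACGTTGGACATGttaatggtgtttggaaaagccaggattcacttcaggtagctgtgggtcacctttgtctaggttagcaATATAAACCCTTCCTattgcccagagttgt
Prss29, chr17:25318404-25318653: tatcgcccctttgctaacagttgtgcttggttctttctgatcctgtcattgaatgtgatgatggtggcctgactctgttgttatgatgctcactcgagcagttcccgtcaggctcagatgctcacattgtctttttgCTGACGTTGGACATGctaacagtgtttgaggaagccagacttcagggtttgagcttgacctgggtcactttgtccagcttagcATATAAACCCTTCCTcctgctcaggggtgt
The windows are 61.6% identical over their alignment. The longest run, 15 bases, lies in the middle of each window, and a second run of the same length begins with a TATA-like stretch shortly before the start.

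Most serine proteinase genes of the same cluster were as low. Of 10 cluster genes outside the members, 8 were below 1 in every library, among them Prss34 and Tpsg1, listed at 0 throughout, and the mast cell tryptase genes Tpsab1 (at most 0.197) and Tpsb2 (at most 0.259). Prss27, Prss33 and Prss41 reached at most 0.218, 0.0481 and 0.351. Prss30 was under the filter at 0.0139 to 0.219 in cKO and 0.395 to 0.458 in control, with no overlap. The 2 tested genes were well expressed and neither was called. Prss22 was 22.0, 13.4, 26.8, 15.2 and 6.23 in cKO 1 to 5, and 49.3, 57.7 and 26.4 in control 1 to 3. Only cKO 3 lay inside the control range. The log2 fold change of Prss22 was -1.43 ± 0.426 (limma adjusted p = 0.0571), and -1.54 within the main title series (adjusted p = 0.107). It passed without cKO 3, at -1.63 (adjusted p = 0.0322), and with TPM (adjusted p = 0.0351). Prss32 was 20.2 ± 17 in cKO and 31.5 ± 13.7 in control (SD, n = 5 and 3; limma adjusted p = 0.364). Of 9 mast cell markers, 7 were below 1 in every library, with Cpa3 at most 0.0999. The 2 above 1 were Kit, called higher at 3.55 ± 0.906 in cKO and 1.34 ± 0.302 in control, and Hdc, not called.

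Of 9 further genes known from mouse uterine glands, 4 met the filter, of which 0 were called higher and 2 lower (Wfdc16 and Axin2), against 7.27% of all tested genes called higher and 6.98% called lower. The filter fixed the direction of the Wfdc16 call, so of the 2 only the Axin2 call can be set against that share, with a limit. Axin2 reached 1 scaled FPKM in every control library but in cKO only in cKO 3 and cKO 5. The cKO libraries alone would not have carried it past the filter. With 4 genes tested, a count of 0 higher is near that background. The median log2 fold change of the 4, Wfdc16 included, was -0.93. At an unadjusted p below 0.05 the counts were 0 and 2, the same 2 genes. Within the main title series 0 were called higher and 1 lower (Wfdc16), and without control 2 or control 3 neither direction had a call. Wfdc16, of the whey acidic protein type protease inhibitor family, was 0.246, 0.684, 0.297, 0.374 and 0.960 scaled FPKM in cKO 1 to 5, and 1.41, 2.41 and 3.63 in control 1 to 3. Every cKO value was below every control value. Wfdc16 met the filter only through control, which fixes the direction of its call, so its log2 fold change of -1.17 (-1.15 within the main title series) is given with no test. Axin2, a feedback inhibitor and readout of canonical Wnt signalling, fell, at 1.10 ± 0.806 in cKO and 4.03 ± 1.84 in control (SD, n = 5 and 3; log2 fold change -1.27 ± 0.359, limma adjusted p = 0.0478). The groups overlapped, with 2.22 in cKO 3 and 1.90 in control 1. This call was lost in 12 of 16 alternatives. They include the main title series (-1.08, adjusted p = 0.141) and leaving out cKO 1 (0.0867), cKO 2 (0.0783), cKO 4 (0.0784), cKO 5 (0.0610), control 2 (0.199) or control 3 (0.187). Prom1, which encodes the apical membrane protein prominin 1, was the most abundant gene of the list, at 359 ± 87.9 in cKO and 602 ± 239 in control, and was not called (limma adjusted p = 0.167). Aldh1a1, a retinaldehyde dehydrogenase gene, was 2.06 ± 0.991 and 1.91 ± 0.204. The secretory gland genes Spink1 and Ttr were listed at 0 in all libraries, and Cxcl15 did not exceed 0.131. Lgr5, the R-spondin receptor gene of stem cells, was at most 0.143 in cKO, with 0.0934, 0.773 and 0.687 in control 1 to 3.

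Of 4 tested genes listed as markers of luminal epithelium, 1 (Krt13) was called higher and 0 lower, against 7.27% and 6.98% of all tested genes. Krt13 was below 1 scaled FPKM in every control library, so its rise is not read as one of luminal cells. The filter fixed the direction of the Krt13 call, so nothing is read from the count of 1 higher. At an unadjusted p below 0.05 the count of lower genes was 1. The median log2 fold change of the 4, Krt13 included, was 0.35, and its sign depends on Krt13, so nothing is read from it. Outside Krt13 the log2 fold changes were -0.51 (Wnt7a), -0.15 (Lpar3) and 0.85 (Calb1). Lpar3, the lysophosphatidic acid receptor gene needed for embryo spacing, was 7.60 ± 0.869 in cKO and 8.51 ± 0.779 in control and was not called. Wnt7a was 16.9 ± 5.44 in cKO and 23.8 ± 2.55 in control, and Calb1 287 ± 179 and 164 ± 125, also not called. Wnt7a passed as lower without cKO 1, with TPM and within the main title series. Krt13, a keratin of stratified epithelia, was 7.02, 1.0, 7.76, 3.44 and 7.78 in cKO 1 to 5, and 0.320, 0.231 and 0.532 in control 1 to 3. All cKO values lay above the control values, with cKO 2 the lowest cKO library. Krt13 met the filter only through cKO, which fixes the direction of its call, so its log2 fold change of 2.04 (2.37 within the main title series) is given with no test. The call was lost without any 1 control.

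**Figure D4:**
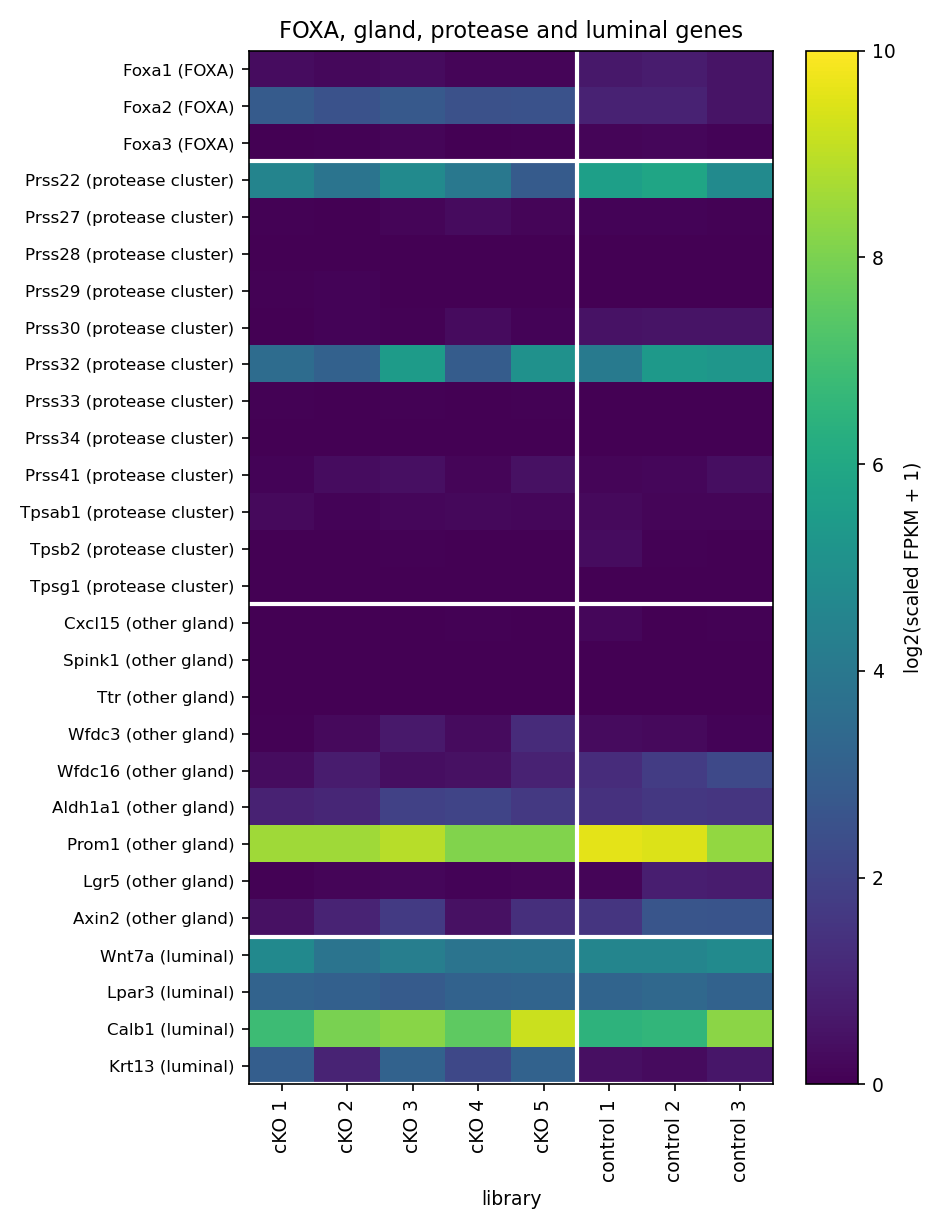
log2(scaled FPKM + 1) of the FOXA genes, the serine proteinase cluster, other gland genes and luminal genes (rows) in each library (columns), with the cKO libraries left of the white line and the control libraries right of it. Foxa2 is brighter in the 5 cKO columns, Prss28 and Prss29 are dark throughout, and Wfdc16 is brighter in control. Axin2 is brightest in control 2 and control 3 and overlaps between the groups.

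Genes that build glands in the postnatal uterus are mainly of the Wnt pathway and homeobox families. They gave 1 called higher and 3 called lower of 18 tested, against 7.27% and 6.98% of all tested genes. Their median log2 fold change was -0.31. The filter fixed the direction of the 1 higher call (Wnt11), so nothing is read from that count. Axin2, among the 3 lower genes, is also in the list of gland genes above, and the limit given there holds here too. With the stromal and muscle level in the model 0 were called higher and 2 lower (Fzd10 and Lgr4), with 4 and 3 at an unadjusted p below 0.05. Within the main title series 0 were called higher and 3 lower (Fzd10, Lgr4 and Wnt7a). Leaving out 1 library gave 0 to 2 higher and 2 to 5 lower, with 5 lower without cKO 3. The receptor gene Fzd10 was 0.895, 1.21, 2.08, 1.90 and 1.88 in cKO 1 to 5, and 6.23, 7.91 and 8.97 in control 1 to 3. The groups were far apart, in the direction opposite to Foxa2. Its log2 fold change was -1.76 ± 0.189 (limma adjusted p = 0.00113), and -1.55 within the main title series (adjusted p = 0.00380). Lgr4, an R-spondin receptor gene, fell, at 2.89 ± 0.636 in cKO and 6.30 ± 0.421 in control (SD, n = 5 and 3; -0.92 ± 0.144, limma adjusted p = 0.00531; -0.77 and adjusted p = 0.0122 within the main title series). The calls of Fzd10 and Lgr4 held in all 17 alternatives, and Axin2 is the third gene that fell.

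Wnt11 was the 1 higher gene of that list, at 1.20 ± 0.671 in cKO and 0.140 ± 0.0398 in control (SD, n = 5 and 3; log2 fold change 0.89). It met the filter only through cKO, which fixes the direction of its call, so no test is given, and it was under the filter without cKO 2, cKO 3 or cKO 5, and also within the main title series. The call was lost without any 1 control. The other Wnt ligand genes were not called, with Wnt4 at 25.4 ± 5.38 in cKO and 28.7 ± 5.71 in control, Wnt5a at 5.07 ± 1.50 and 2.83 ± 1.13, and Wnt16 at 2.99 ± 0.975 and 1.28 ± 0.643. Wnt5a and Wnt16 passed as higher without control 1, and Wnt16 also without cKO 4 and with a pseudocount of 0.1. Ctnnb1, the beta-catenin gene, was 434 ± 34.1 in cKO and 407 ± 56.9 in control. The homeobox genes Hoxa10, Hoxa11, Hoxd10, Hoxd11, Hoxd12 and Hoxd13, mostly genes of stroma in this organ, were all under the filter. Msx1 and Msx2, homeobox genes of the same list, were well expressed and not called. Msx1 was 19.7 ± 9.87 in cKO and 30.4 ± 10.0 in control, and Msx2 13.9 ± 0.986 and 11.9 ± 2.64.

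Partners of SOX17 and FOXA2 in receptivity, the hormone receptors and the Indian hedgehog axis, had 0 called higher and 1 called lower of 6 tested, beside 7.27% and 6.98% of all tested genes, with a median log2 fold change of -0.29 (0 higher and 3 lower at an unadjusted p below 0.05). Within the main title series 0 were called in either direction. Nr2f2, which encodes COUP-TFII, a stromal target of hedgehog signals, was 5.47 ± 0.694 in cKO and 8.54 ± 1.09 in control (SD, n = 5 and 3; -0.56 ± 0.118, limma adjusted p = 0.0175). The call was lost without control 1 (adjusted p = 0.0614) or control 2 (0.0983), within the main title series (-0.53, 0.0587) and with the stromal and muscle level in the model (-0.42, 0.0934). Ihh itself, a known target of SOX17 and the progesterone receptor, was at most 0.0514 in every library. Pgr was 1.12 ± 0.381 in cKO and 1.38 ± 0.558 in control and was not called. The cKO mice carry the Cre knock-in at the Pgr locus, so effects of that allele and of the Smad2/3 deletion on Pgr cannot be told apart. Gata2 was lower in each cKO library than in any control, at 26.5 ± 1.90 and 32.4 ± 2.29, but missed the threshold (limma adjusted p = 0.0760). Esr1, the oestrogen receptor gene, was 38.2 ± 6.28 in cKO and 30.7 ± 3.87 in control and was not called.

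**Figure D5:**
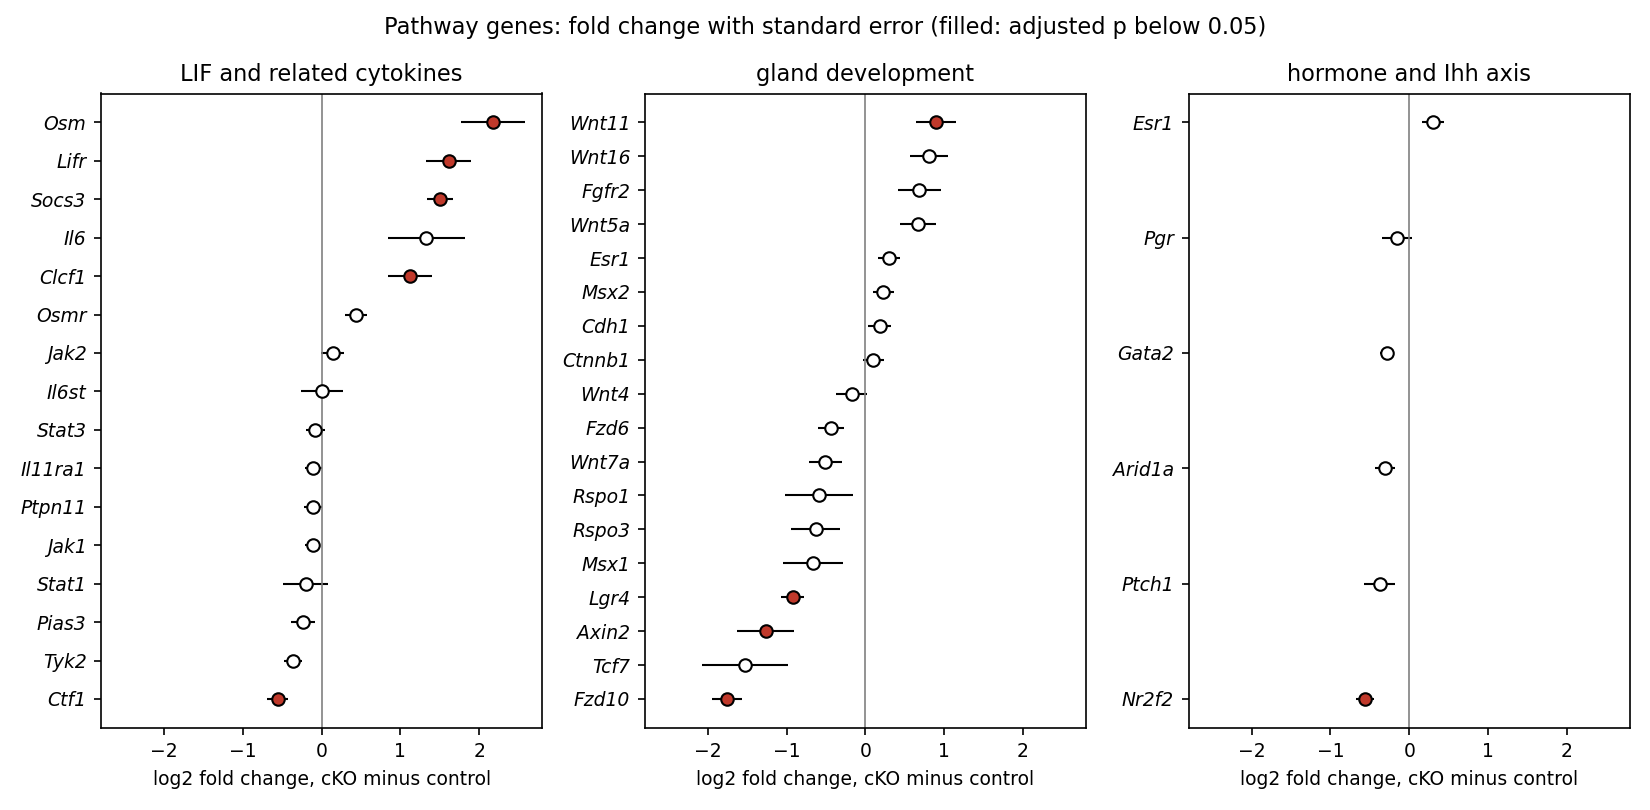
log2 fold change (cKO minus control, with its standard error from limma) of each tested gene of the LIF, gland development and hormone and Ihh lists. Filled points have an adjusted p below 0.05: Socs3, Lifr, Osm, Clcf1 and Wnt11 (which met the filter only through cKO) to the right of 0, and Fzd10, Axin2, Lgr4, Ctf1 and Nr2f2 to the left.

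The tested genes with the pattern most like each member were ranked by Pearson correlation of log2(scaled FPKM + 1) over the 8 libraries. For Foxa2 they were Cnksr3 (r = 0.99), Slc30a4 (r = 0.99) and Id3 (r = 0.98), values that hold the gap between the groups. Within the 5 cKO libraries alone r was 0.90 for Cnksr3, 0.65 for Slc30a4 and 0.20 for Id3. Cnksr3 was 5.56, 5.18, 5.62, 4.69 and 4.92 scaled FPKM in cKO 1 to 5, and 3.12, 3.08 and 2.52 in control 1 to 3. Id3, a BMP target gene, was 87.1, 75.8, 118, 85.2 and 125 in cKO 1 to 5, and 4.37, 3.76 and 2.59 in control 1 to 3. For Lif the most alike were Dnmbp (r = 0.97), Hspa1l (r = 0.96) and Zfp790 (r = 0.95), and within cKO r was 0.99, 0.99 and 0.95. Dnmbp followed the order of Lif over a much smaller range, at 14.8, 15.2, 11.7, 14.4 and 10.9 in cKO 1 to 5, and 15.3, 13.3 and 12.3 in control 1 to 3. For Sox17, Gca (r = 0.97) and Samhd1 (r = 0.96) were among the 3 most alike, and within cKO r was 0.91 and 0.97. Samhd1 was 19.9, 24.5, 24.9, 32.2 and 30.0 in cKO 1 to 5, and 15.5, 15.3 and 14.6 in control 1 to 3. The ranking was over the 11315 tested genes, passing over model names, small RNAs and pseudogenes. Taking the top of so many genes over 8 libraries gives a high r by itself. The 5 cKO libraries are among the 8 used for the ranking, so r within cKO is not a separate check. The points share libraries and depth, and no p is given for them.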

How the data were processed

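RNA of 5 cKO and 3 control libraries was analysed, grouped by the genotype label. The members and gene lists were chosen with earlier results of these data known. TopHat, Cufflinks, bcl2fastq 1.8.3 and the mm10 build are named in the submitters' processing notes. The deposited values are FPKM per RefSeq transcript with 95% intervals, made by the authors library by library, as the file headers show. The coverage signal that the authors deposited beside them was not used for any level. Mapped fragments (43.1 to 54.3 M) were estimated from the width of the FPKM intervals. No counts were used.

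FPKM of 34535 transcripts was summed per symbol, 15 genes with a status other than OK were left out, and libraries were scaled by median ratios over 9939 genes (factors 0.924 to 1.06). The 11315 genes with scaled FPKM of at least 1 in 3 libraries went into a two-sided limma fit with a variance trend (limma 3.58.1, R 4.3.3, log2 of scaled FPKM + 1), and an adjusted p (Benjamini-Hochberg) below 0.05 was a call. The fit was tested on simulated data. Group values are mean ± SD, and fold changes carry limma's standard error. Named genes were the members, their families, up to 5 called genes per list by adjusted p and the 3 genes most alike per expressed member. Other list genes were named after their values were seen. A marker of luminal epithelium and a gene alike to Sox17 are not reported here, and the marker is left out of its list's counts. Alternatives were other scalings, pseudocounts and filters, keeping genes of any status, leaving out each library or the other title series, and title series or stromal and muscle level as a term.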

Additional observations from a re-analysis of the deposited data

How the results depend on the processing

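With 823 genes higher and 790 lower in cKO, TPM gave 510 and 1662, which moved the share of higher genes among the calls to 23.5% under TPM, against 51.0% with scaled FPKM. The TPM median log2 fold change over tested genes was -0.20. Relative to that median Foxa2 differed by 2.32, Sox17 by 0.46, Lif by -0.28 and Foxa1 by -0.65. With the marker level of stroma and muscle in the model 353 were higher and 299 lower. Leaving out 1 library gave 238 to 935 higher and 176 to 892 lower; without control 1 the counts were 578 and 437, without control 2 they were 238 and 186, and without control 3 they were 243 and 176. The main title series alone gave 718 and 592. The Foxa2 difference of 1.81 became 2.11 with TPM and 2.64 with a pseudocount of 0.1, and the Foxa1 difference of -0.42 became -0.86 and -1.32. Over 14 alternatives Foxa2 stayed between 1.66 and 2.64, Foxa1 between -1.32 and -0.35 and Sox17 between 0.25 and 0.54, while Lif ran between -0.72 and 0.05. No named gene with a call changed direction in the alternatives run. Wfdc16 was not tested without any 1 control, and Wfdc16, Axin2, Ctf1 and Wnt11 were not tested with the filter at scaled FPKM 5. No paired analysis was possible because the labels give no replicate numbers that cKO and control libraries share. Low FPKM limits Foxa1, Prss28 and Prss29.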
